A study of Mus musculus with 4 samples.

Results

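In day 4 embryoid bodies, 640 intronic regions of open chromatin were strong in both WT libraries and had no peak in either CTCF-K20R library. They were 640 of 80380 regions in all and of 30860 intronic regions. The data were ATAC-seq peak lists, in which a transposase cuts accessible DNA and the pile of cuts is called as a peak. The cells were mouse embryonic stem cells of the line E14Tg2A, grown on inactivated embryo fibroblasts with serum, LIF and 2i inhibitors and then aggregated in hanging drops with serum and no LIF. The mutant, CTCF-K20R, carries arginine in place of lysine 20 of CTCF, made with CRISPR/Cas9, and the other genotype is WT, with 2 libraries of each. No difference in culture between genotypes is described, while electroporation and drug selection are described for the mutant only. The sources used here do not say how many clones the CTCF-K20R libraries came from, so clone and mutation cannot be told apart. Peak lists hold no expression values, so cell types were not named. Promoter peaks in all 4 libraries were found for 13951 genes, among them 27 of 37 of an early mesoderm list and 19 of 27 of a pluripotency list. It was 19 of 26 for endoderm, 19 of 26 for neuroectoderm, 22 of 35 for cardiac and 19 of 30 for blood and endothelium genes. Such counts did not single out a lineage. Feeder fibroblasts may have been carried over, and their part in the peaks was not tested.

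CTCF is a zinc finger protein that binds its own long motif, stops cohesin as it extrudes DNA loops and so helps to set which enhancers meet which promoters. Enhancers often lie in introns, either of the gene they act on or of a neighbour, and are opened by transcription factors of the lineage. In the forming mesoderm such factors include GATA, T-box (Brachyury, Eomes), forkhead and homeodomain proteins, while Wnt signals act through TCF and LEF factors.

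Overlapping peaks (by 1 bp or more) from any of the 4 lists formed a region. A region was selected on measured values: its −log10 q had to reach 10 in each WT list, and neither K20R list could have a peak there. Its strongest summit had to lie over 1000 bp from every start site (TSS) of a protein-coding transcript, outside exons and inside the body of a protein-coding gene, called the host. The WT strength and the missing K20R peak of the 640 regions are therefore a description with no test. The members closest to the limit lay in Tbc1d5 (lower −log10 q of the 2 WT lists 10.0318) and Svil (10.0319). The first regions left out lay in Acsbg1 (9.99759), Snx29 (9.9779) and Kcnab2 (9.96988).

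The sequences at the summits of 6 of the 12 strongest members are shown first, since the motif content described further on rests on such windows. Each is 201 bases of the plus strand of mm10 centred on the summit, in lower case, with letters of any of the 17 motif families searched, found on either strand, in capitals. The letters of each family and the share of all regions that hold them are given with the motif counts. They were chosen to show the TCF-LEF and SOX letters at Slc44a5, GATA and forkhead letters at Arnt2, a T-box match at Fam120b, an AP-1 match at T2, GATA at Nuak2 and the homeodomain core at Camk2d.
Slc44a5, chr3:154192551-154192751: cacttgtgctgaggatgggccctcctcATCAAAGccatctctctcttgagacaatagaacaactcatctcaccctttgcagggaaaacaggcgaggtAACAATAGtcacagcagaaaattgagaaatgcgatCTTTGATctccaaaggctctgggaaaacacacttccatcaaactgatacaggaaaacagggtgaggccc
Arnt2, chr7:84254442-84254642: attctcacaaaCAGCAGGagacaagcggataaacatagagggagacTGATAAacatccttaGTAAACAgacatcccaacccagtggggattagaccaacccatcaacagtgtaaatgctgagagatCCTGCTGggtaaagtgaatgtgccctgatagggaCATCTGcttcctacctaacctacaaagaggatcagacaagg
Fam120b, chr17:15430672-15430872: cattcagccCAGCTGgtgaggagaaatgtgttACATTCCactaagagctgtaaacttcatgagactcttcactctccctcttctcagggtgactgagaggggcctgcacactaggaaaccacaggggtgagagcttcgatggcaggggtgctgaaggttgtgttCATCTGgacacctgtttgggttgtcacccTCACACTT
T2, chr17:8396442-8396642: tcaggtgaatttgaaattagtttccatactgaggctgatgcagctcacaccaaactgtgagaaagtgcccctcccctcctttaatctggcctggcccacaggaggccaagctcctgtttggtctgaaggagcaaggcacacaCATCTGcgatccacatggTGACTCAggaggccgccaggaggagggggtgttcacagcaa
Nuak2, chr1:132318225-132318425: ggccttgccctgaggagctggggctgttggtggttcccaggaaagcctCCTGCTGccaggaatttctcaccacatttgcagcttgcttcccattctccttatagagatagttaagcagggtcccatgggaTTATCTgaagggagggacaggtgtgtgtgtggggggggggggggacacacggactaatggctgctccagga
Camk2d, chr3:126643499-126643699: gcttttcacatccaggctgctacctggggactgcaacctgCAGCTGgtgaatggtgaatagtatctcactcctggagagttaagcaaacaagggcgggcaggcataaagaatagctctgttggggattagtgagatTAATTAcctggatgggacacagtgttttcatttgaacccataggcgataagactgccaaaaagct

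Of the 6257 intronic regions that were strong in both WT lists, 640 (10.2%, 95% Wilson interval 9.50 to 11.0%) had no K20R peak, 479 had a peak in 1 K20R list and 5138 (82.1%) in both. The same rule with the genotypes exchanged found 59 of 4926 strong K20R intronic regions (1.20%, 0.930 to 1.54%) without a WT peak. Intervals cover counting error alone, since regions of a library are not replicates. Promoters hardly took part: 32 of 12766 strong WT promoter regions (0.251%) lacked a K20R peak. The share was 2.52% (24 of 952) in exons and 7.82% (607 of 7759) between genes. Classes were not matched for WT strength, and in introns this share fell with strength, as given below. The K20R lists were shorter (51823 and 55832 peaks) than the WT lists (59783 and 66703). With the 51823 strongest peaks of each list, 706 regions met the rule and 108 met the exchanged rule. The number also depended on single libraries. It was 2066 without WT replicate 1, when 11821 intronic regions counted as strong in place of 6257, and 999 without K20R replicate 2, against 682 without WT replicate 2 and 765 without K20R replicate 1.

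**Figure D1:**
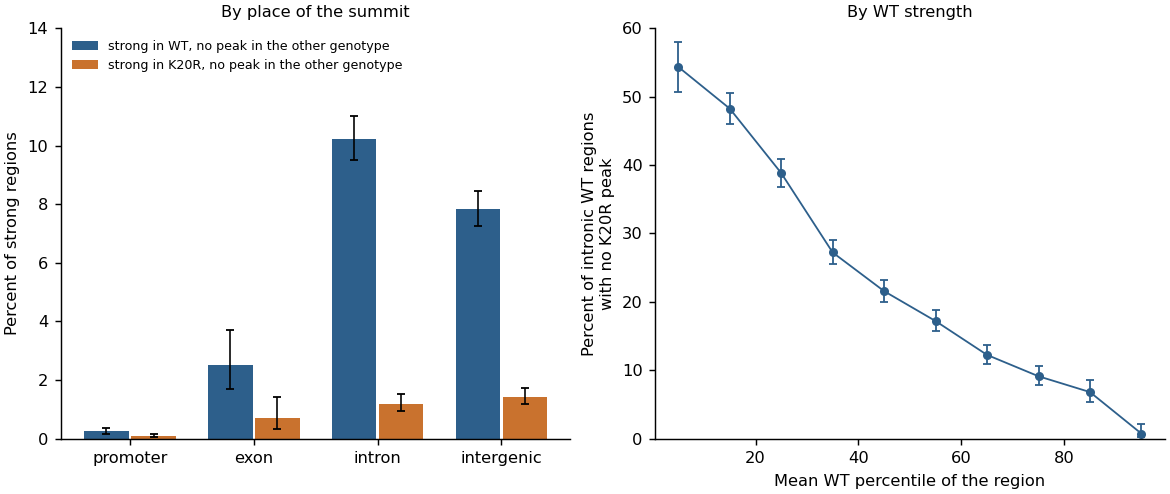
Left, percent of regions strong in both libraries of a genotype that had no peak in the other genotype, by place of the summit (blue, strong in WT; orange, strong in CTCF-K20R; bars, 95% Wilson intervals), highest for strong WT regions in introns at 10.2%. Right, percent of intronic regions with a peak in both WT lists that had no K20R peak, by mean WT percentile in steps of 10, falling from 54.3% in the weakest to 0.744% in the strongest step.

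Strong WT regions seldom lacked a K20R peak, and the strongest hardly ever did. A peak's percentile is its rank by p in its own list, with 100 for the strongest. Among intronic regions with a peak in both WT lists, 375 of 690 (54.3%) in the weakest step of mean WT percentile (0 to 10) had no K20R peak. The share fell to 69 of 1012 (6.82%) at 80 to 90 and to 3 of 403 (0.744%) at 90 to 100. The 640 regions thus filled the middle and upper part of the WT lists and not their top. Their mean WT percentile was at least 50 in 625, at least 70 in 223, at least 80 in 72 and at least 90 in 3.

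In WT replicate 1 the members ranged from percentile 52.7 to 94.0 with a median of 63.8, and in WT replicate 2 from 39.0 to 96.4 with a median of 67.7. The summit pileup, the number of reads stacked at the summit as recovered from the deposited fold and p, ran from 21 to 109 (median 32) in WT replicate 1 and from 21 to 179 (median 49) in WT replicate 2. The deposited fold over local background had medians of 6.36 and 8.32. The WT libraries ordered the members alike (Spearman correlation 0.72 across 640 regions, given as a description, since both libraries chose them), and the summits of both lay 41 bp apart in the median. The pileup was higher in WT replicate 2 at 618 of the 640 regions, and the percentile at 403.

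**Figure D2:**
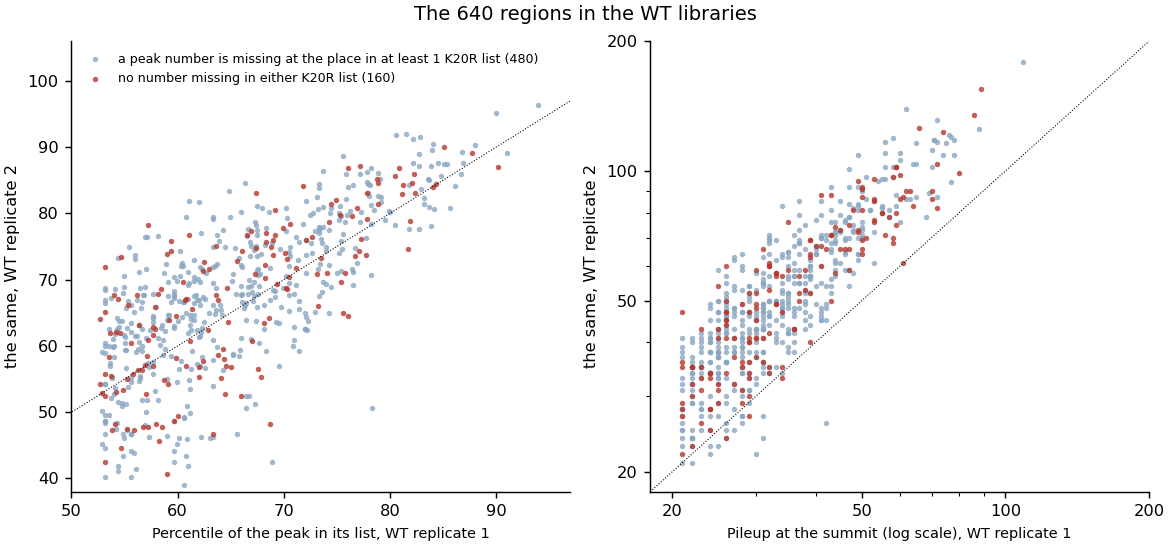
The 640 regions in WT replicate 1 (x axis) and WT replicate 2 (y axis), as percentile of the peak in its list (left) and as summit pileup on log scales (right), with the dotted line at equal values. The 160 regions where no peak number is missing in either K20R list (red) are spread over the same range as the other 480 (blue).

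A peak missing from a K20R list may have been called and then removed. Peak numbers run along each list with gaps, which shows that called peaks were removed by a rule the sources used here do not state. No number was missing between the flanking listed peaks at 227 members in K20R replicate 1 and at 262 in K20R replicate 2. At 160 members (25%, 21.8 to 28.5%) none was missing in either list, so that no called peak can have been taken out there. At the other 480, a removed peak was possible in at least 1 list. For the exchanged rule, 11 of the 59 regions had no missing number in either WT list. The flanking listed K20R peaks stood 57566 bp apart in replicate 1 and 53870 bp in replicate 2 in the median.

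The strongest member lay in intron 2 of Slc44a5, a gene of the choline transporter-like family (chr3:154192127-154193406). It reached percentiles 94.0 and 96.4 and pileups of 109 and 179 in WT replicates 1 and 2. Both WT libraries were high there, and the nearest K20R summit was 12963 bp away. The closest start site was that of Lhx8, a LIM homeodomain factor, at 137408 bp. Next came Aox2, an aldehyde oxidase (chr1:58341344-58342291, percentiles 90.04 and 95.2), and Plcl2, a phospholipase C-like protein (chr17:50643479-50644808, 91.1 and 89.1). Camkmt, which encodes the calmodulin-lysine methyltransferase, held the fourth (chr17:85149063-85149897, 88.1 and 90.3). Both WT libraries placed all 4 at percentile 88.1 or higher.

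At 3 of the 12 strongest members no peak number was missing in either K20R list. In intron 9 of Fam120b the pileups were 80 and 99 (chr17:15430174-15431332), and the summit lay 34570 bp from a start site of Fam120b itself and 54796 bp from one of Dll1, the Notch ligand of the presomitic mesoderm. In intron 1 of Ttc6 they were 86 and 135 (chr12:57571482-57572793), at 3243 bp from a start of Ttc6 itself and 26453 bp from Foxa1, a forkhead factor of the endoderm. In intron 1 of Nuak2, an AMPK-related kinase, they were 89 and 155 (chr1:132317735-132318676), and K20R summits were listed only 2269 bp away. WT replicate 2 had the higher pileup at each of the 3.

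The remaining 5 of the 12 lay in Tbc1d2b, a Rab GTPase-activating protein (percentiles 86.8 and 89.4), Dip2a (84.1 and 90.5), T2 (86.9 and 87.6), Camk2d, the delta subunit of calcium/calmodulin kinase II (82.8 and 91.5), and Arnt2, a bHLH-PAS factor (81.5 and 92.1). The member in Dip2a was closest to the start of S100b, a calcium-binding protein, at 8505 bp. T2 neighbours T, which encodes Brachyury. Its summit was 37881 bp from the start of T (chr17:8396041-8397074, pileups 70 and 102), and a second, weaker member in T2 was 65600 bp from it (pileups 43 and 66). The summit in Camk2d was 46185 bp from the nearest start site of that gene, and the one in Arnt2 113369 bp.

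Members lay farther from start sites and in longer genes than common intronic regions. The median distance from the summit to the nearest start site of the host was 35355 bp, and to any protein-coding start site 28392 bp, against 19724 bp for the 10370 common intronic regions, which had a peak in all 4 lists. The median host gene was 161398 bp long, against 93460 bp for common intronic regions, and the median intron 30363 bp against 14923 bp. Of 606 members with an intron number, 220 (36.3%, 32.6 to 40.2%) lay in the first intron, 98 in the second and 68 in the third. For common intronic regions the first intron held 29.0% (28.2 to 29.9%). Of the sets most like the members, the weaker WT-restricted regions shared much of this and those of the exchanged rule only part. For the weaker WT-restricted intronic regions the median distance to a start site was 27308 bp, the host 125722 bp and the intron 25717 bp long, and 32.7% lay in the first intron. For the 59 regions of the exchanged rule the distance was 24201 bp and the host 137012 bp long. Their median intron was 16582 bp long, and 24.6% (15.2 to 37.1%) of those with an intron number lay in the first intron. At 509 members the nearest protein-coding start belonged to a gene around the region, and at 131 (20.5%) it belonged to another gene.

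**Figure D3:**
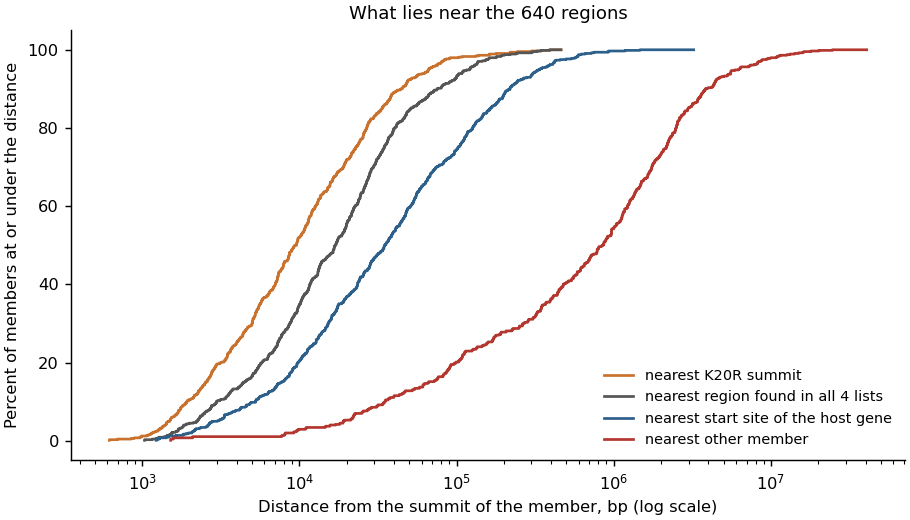
Percent of the 640 regions (y axis) with the named feature at or under a distance in bp from their summit (x axis, log scale). The nearest K20R summit lay 9596 bp away in the median, the nearest region found in all 4 lists 17045 bp, the nearest start site of the host gene 35355 bp and the nearest other member 860666 bp.

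The members were spread over many genes, with some close together. They fell in 554 host genes, of which 486 held 1 member, 57 held 2, 7 held 3 and only 4 held more. The nearest other member was 860666 bp away in the median. It lay within 100000 bp for 128 members (20%), and 154 members shared their host with another. A random placement was not computed for comparison. All chromosomes but Y held some, from 10 of 76 strong WT intronic regions on X to 52 of 399 on chromosome 5. Their share was lowest on chromosome 8 (5.97%, 3.93 to 8.95%) and highest on chromosome 18 (14.7%, 10.4 to 20.3%).

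Auts2, a long gene known for its part in neural development, held the most members, 6 (chr5:131437333-132543344). Their pileups ran from 22 to 42 in WT replicate 1 and from 35 to 65 in WT replicate 2. Of its 40 intronic regions, 16 had peaks in both WT lists alone, none in both K20R lists alone, and 8 were common. Of all 30860 intronic regions, the 640 members and 3580 weaker regions had peaks in both WT lists alone. Another 1014 had them in both K20R lists alone, and 10370 were common. A gene picked for its many members is bound to be rich in WT-only regions, so its counts are a description. A run of 5 of the 6 members lay between the same flanking K20R peaks in each K20R list, in a gap of 331228 bp in replicate 1 and 207667 bp in replicate 2. In that gap 5 and 2 peak numbers were missing, so fewer peaks can have been removed from K20R replicate 2 than the members it spans.

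Cdh2, which encodes N-cadherin, the cadherin that cells take on as they enter mesoderm, held 4 members. The strongest had percentiles 82.8 and 89.0 and pileups of 56 and 110, and the weakest 55.6 and 44.2, with pileups of 22 and 23. All 4 shared 1 missing number in each K20R list, so at most 1 peak per list can have been removed among them. Of its 10 intronic regions, 6 were found in both WT lists alone, none in both K20R lists alone, and none was common. Cdh2 was likewise picked for its number of members, so these counts are a description. Mast4, a microtubule-associated kinase, also held 4 members, with pileups from 25 to 32 and from 34 to 53. The gene model Gm20388 held 5, but it spans 4434882 bp of chromosome 8 and contains other genes. Of its members 2 lie in Gse1 as well.

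The gene lists were read against the 10.2% of all strong WT intronic regions that lacked a K20R peak. In genes of guidance receptors and ligands, 10 of 58 strong WT intronic regions were members (17.2%, 9.64 to 28.9%). In cadherins, integrins and matrix genes it was 12 of 67 (17.9%, 10.6 to 28.7%), of which Cdh2 gave 4. The interval of the guidance list holds 10.2%, and that of the other starts just above it. In the guidance list Robo1, the Slit receptor, held 2 members in its first intron (pileups 47 and 92, and 57 and 81), and Sema6a, a transmembrane semaphorin, also held 2 (58 and 102, and 30 and 58). Sema6d followed (45 and 73) with no missing K20R number.

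Among signalling genes, 6 of 46 strong regions in Wnt pathway genes were members (13.0%, 6.12 to 25.7%), each in a different gene. The strongest lay in Sfrp1, a secreted Wnt antagonist (chr8:23435068-23436158, percentiles 82.8 and 87.2). Tcf7l1, a TCF factor that represses Wnt targets, followed with 82.1 and 84.7 and no missing K20R number. The closest start site to that region was that of Tgoln1, at 24756 bp, and no start of Tcf7l1 lay within 100000 bp. Znrf3, a ubiquitin ligase that removes Frizzled receptors, had 78.1 and 84.3, and Daam1, a formin of the planar polarity branch, 73.6 and 75.6. In the BMP, Nodal and TGF-beta list it was 5 of 26 (19.2%, 8.51 to 37.9%). Smad6, an inhibitory Smad, had pileups of 77 and 94, Acvr2b, an activin receptor, 41 and 79, and Tgfbr3, the betaglycan coreceptor, 21 and 33. Bmper, a secreted BMP modulator, held 2 members.

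In the FGF and ERK list it was 4 of 47 (8.51%), and the count of 3 for Fgfr2 rests on a gene model of 2960900 bp. The member at chr7:130258191-130259110 was 7530 bp from a start of Fgfr2 (pileups 49 and 83), and the other 2 lay over 100000 bp from any. Frs2, the docking protein of FGF receptors, held the fourth (34 and 64). The Notch list had 1 of 21, in Rbpj, the DNA-binding effector of the pathway (33 and 57, no missing K20R number).

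Inside the bodies of lineage genes the counts were small, and the intervals of all 6 lists hold 10.2%. In the cardiac list it was 3 of 34 (8.82%, 3.05 to 23.0%): Nfatc1, a factor of the endocardium, held 2 (pileups 69 and 89, and 50 and 64), and Myocd, the coactivator of serum response factor, 1 (25 and 43). In the blood and endothelium list it was 2 of 18 (11.1%), in Runx1 (38 and 53) and Pecam1 (28 and 27). Lama1 was the 1 of 11 (9.09%) in the endoderm list, and Ncam1 and Pax3 the 2 of 27 (7.41%) in the neuroectoderm list. None of 8 was a member in the early mesoderm and primitive streak list (upper bound 32.4%) and none of 18 in the pluripotency list (17.6%). CTCF and cohesin genes had only 2 strong WT intronic regions, neither of them a member. Members in introns near the start sites of list genes were also counted, a count chosen after the values were seen.

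Within 100000 bp of a start site of an early mesoderm gene, 6 of 46 strong WT intronic regions were members (13.0%, 6.12 to 25.7%), again an interval that holds 10.2%. Besides the Fam120b region near Dll1 and the pair in T2 near T, these were a region in Ube2v1 at 87507 bp from Snai1, the repressor of E-cadherin (pileups 35 and 52), one in Camk2a at 88390 bp from Cdx1 (36 and 43) and one in the Gm20388 model at 6582 bp from Foxf1 (36 and 43). Foxf1 was the nearest start site for the last of these, while the other 5 lay closer to a start of their own host, at 34570 bp in Fam120b, 24146 and 3573 bp in T2, 6270 bp in Ube2v1 and 15745 bp in Camk2a. For cardiac genes it was 6 of 46 as well, among them a region in Bcas3 at 56740 bp from Tbx2 (39 and 46) and one in Csrp1 at 64990 bp from Tnni1 (45 and 61), whose nearest start was that of Csrp1 itself at 5265 bp. For Wnt genes it was 7 of 76, with 2 regions in Erc2 at 34899 and 53851 bp from Wnt5a (36 and 40, and 22 and 33). For pluripotency genes it was 1 of 25, in Slc2a3 at 69797 bp from Nanog (30 and 46) and 34620 bp from a start of Slc2a3. The counts were 3 of 23 for endoderm, 2 of 42 for blood and endothelium, 2 of 32 for neuroectoderm, 7 of 63 for BMP, Nodal and TGF-beta, 3 of 58 for FGF and ERK, and 3 of 40 for Notch. They were 10 of 53 for guidance (18.9%, 10.6 to 31.4%), 10 of 60 for cadherins, integrins and matrix (16.7%, 9.31 to 28.0%), and 0 of 19 for CTCF and cohesin genes. Here the interval of the cadherin list holds 10.2% and that of the guidance list starts just above it, the reverse of the count inside genes.

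The motif letters at the summits were not used by the rule. Letters of 17 motif families were searched on both strands within 100 bp of the summit, overlaps between families were allowed, and the shares are descriptions with Wilson intervals. GATA letters (AGATAA or TGATAA) stood in 173 members (27.0%, 23.7 to 30.6%), against 11.4% (10.8 to 12.1%) of common intronic regions and 12.4% of all regions. Of the 59 regions found with the exchanged rule, 4 had them (6.78%, 2.67 to 16.2%). At least 2 GATA copies stood in 41 members (6.41%) and in 1.02% of common intronic regions.

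Forkhead letters (TGTTTAC or TATTTAC) stood in 89 members (13.9%, 11.4 to 16.8%) against 5.35% of common intronic and 5.21% of all regions. T-box letters (TCACACCT or TCACACTT) stood in 37 members (5.78%, 4.22 to 7.87%) against 2.07% and 2.15%, and the homeodomain core (TAATTA) in 52 members (8.12%, 6.25 to 10.5%) against 3.27% and 3.48%. At least 1 of these 4 families was present in 284 members (44.4%, 40.6 to 48.2%), in 20.1% of common intronic regions and in 9 of the 59 regions of the exchanged rule (15.3%, 8.24 to 26.5%). At least 2 of the 4 were present in 62 members (9.69%) and in 1.90% of common intronic regions. Each of these 4 families was higher in members on its own. The grouped shares follow from that and are no separate result.

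The CTCF motif went the other way. It stood in 6 members (0.938%, 0.430 to 2.03%), all among the weaker 320 by mean WT percentile. The share was 10.8% (10.2 to 11.4%) in common intronic regions and 5.97% in all regions. Of the 59 regions of the exchanged rule 3 held it (5.08%, 1.74 to 13.9%). Among all 1014 intronic regions with peaks in both K20R lists alone it stood in 37 (3.65%, 2.66 to 4.99%). A share below that of common regions was thus not particular to WT-restricted regions, though that of members was lower still. KLF and SP letters (CCACGCCC or CCACACCC) were also fewer, in 19 members (2.97%, 1.91 to 4.59%) against 5.36% of common intronic and 5.37% of all regions. TCF-LEF letters (CTTTGAT or CTTTGAA) stood in 59 members (9.22%, 7.21 to 11.7%) against 6.79% (6.32 to 7.29%) of common intronic regions, intervals that just overlapped. They stood in 6.46% of all regions. Intervals also overlapped for AP-1 letters (TGACTCA), with 6.56% (4.89 to 8.75%) against 5.54% (5.11 to 5.99%), and 5.34% of all regions held them. E-box letters (CAGCTG or CATCTG) were common in both, but more so in members, with intervals that did not overlap. The shares were 38.3% (34.6 to 42.1%) against 30.6% (29.7 to 31.5%), and 28.9% of all regions. ZIC letters (CAGCAGG) stood in 20.6% of members, 17.7% of common intronic regions and 14.4% of all, and CDX and posterior HOX letters (TTTATGG or TTTATTG) in 4.69%, 3.16% and 3.38%. For both families the intervals of members and common intronic regions overlapped. The shares of members and common intronic regions had overlapping intervals for TEAD (GGAATGT or GGAATGC, 6.88% and 7.47%, 6.68% of all), ETS (CCGGAAGT or ACAGGAAG, 3.44% and 2.84%, 4.03% of all) and SOX letters (AACAATGG or AACAATAG, 1.72% and 2.22%, 1.77% of all). The same held for OCT (ATTTGCAT, 1.72% and 2.31%, 1.83% of all), FOXH1 (AATCCACA, 0.938% and 0.723%, 0.687% of all) and nuclear receptor half-sites (TCAAGGTCA, 0.312% and 0.405%, 0.374% of all). No letters of any family stood in 116 members.

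**Figure D4:**
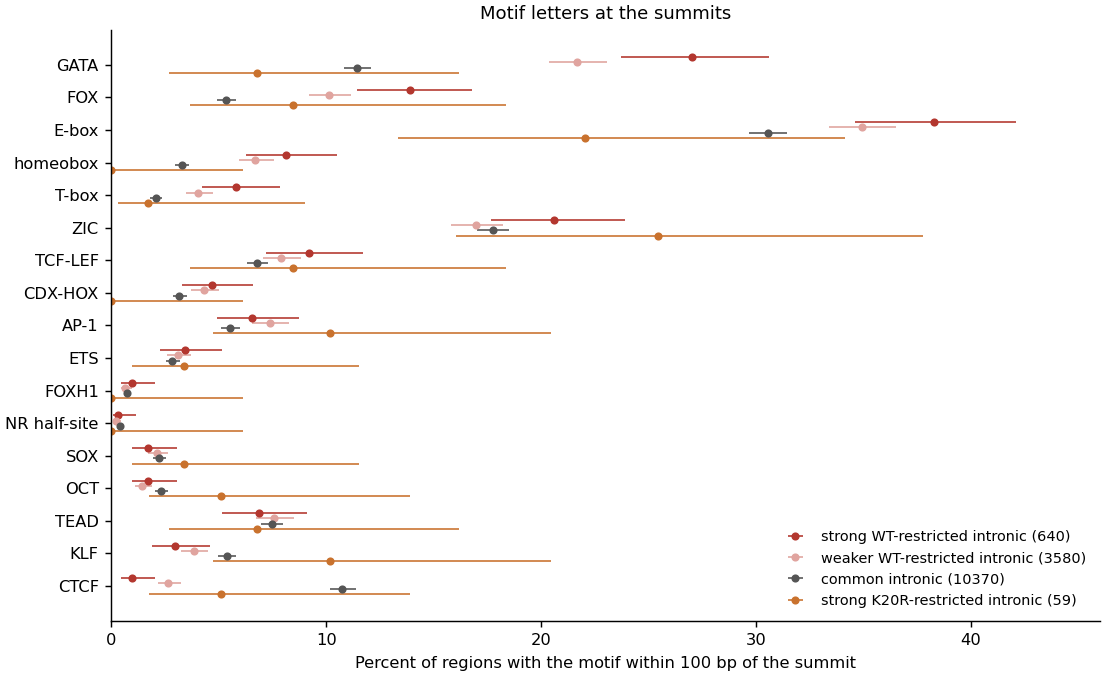
Percent of regions with the letters of each motif family within 100 bp of the summit (x axis) for the 640 members (red), 3580 weaker regions with peaks in both WT lists alone (pink), 10370 common intronic regions (grey) and the 59 strong K20R-restricted intronic regions (orange), with 95% Wilson intervals. GATA letters stand in 27.0% of members and 11.4% of common intronic regions, and the CTCF motif in 0.938% and 10.8%.

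The weaker WT-restricted intronic regions, with peaks in both WT lists alone but a lower q, lay between members and common regions in most of these families: 21.7% had GATA letters, 10.1% forkhead, 4.05% T-box, 6.70% homeodomain and 2.65% the CTCF motif. Members with no missing K20R peak number were set beside the others. GATA letters stood in 41 of the 160 (25.6%, 19.5 to 32.9%) and in 132 of the 480 (27.5%, 23.7 to 31.7%). For T-box it was 12 of 160 (7.5%) and 25 of 480 (5.21%), and for the CTCF motif 2 and 4. Within the members, the homeodomain core stood in 38 of the stronger 320 and 14 of the weaker 320, while GATA letters stood in 87 and 86.

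Base composition moved with these motifs. The 201-base windows of members were 50.7% GC in the median and those of common intronic regions 53.2%. With common intronic regions weighted to the GC of the members, a weighting added after the values were seen, the difference in share was 13.5 percentage points for GATA (15.6 unweighted), 7.55 for forkhead (8.55), 3.56 for T-box (3.71) and −11.0 for CTCF (−9.81). Members held less repeat sequence, with a median of 0% soft-masked bases against 5.97%.

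The windows of 3 members in genes of the lists are given here to show letters of these families beside each other: forkhead letters that share bases with an E-box at Sfrp1, GATA letters at Myocd, and the homeodomain core and forkhead letters at Runx1.
Sfrp1, chr8:23435729-23435929: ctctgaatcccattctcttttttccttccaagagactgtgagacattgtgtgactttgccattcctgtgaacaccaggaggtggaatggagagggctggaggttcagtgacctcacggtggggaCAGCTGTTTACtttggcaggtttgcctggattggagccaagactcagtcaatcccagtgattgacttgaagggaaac
Myocd, chr11:65226739-65226939: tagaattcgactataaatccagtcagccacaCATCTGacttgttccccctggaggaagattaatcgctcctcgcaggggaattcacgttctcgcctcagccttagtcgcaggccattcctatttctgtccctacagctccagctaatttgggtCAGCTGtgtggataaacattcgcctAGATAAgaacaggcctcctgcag
Runx1, chr16:92631757-92631957: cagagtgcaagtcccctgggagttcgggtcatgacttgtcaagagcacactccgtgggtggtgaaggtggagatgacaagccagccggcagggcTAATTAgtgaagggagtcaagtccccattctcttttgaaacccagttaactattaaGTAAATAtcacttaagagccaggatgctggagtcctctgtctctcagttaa

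Promoters of the host genes were measured apart from the rule. Of the hosts, 480 had a promoter peak in all 4 libraries, and each promoter was ranked among the 13951 genes with such peaks. The median percentile over host promoters was 43.8 and 44.2 in WT against 42.4 and 44.1 in K20R, a difference of −0.69 (43.97 ± 0.304 in WT against 43.3 ± 1.20 in K20R, mean ± SD of n = 2 libraries, exact permutation test, two-sided, p = 0.667). The groups overlapped, and with 2 against 2 libraries no p under 0.333 was possible. Both K20R ranks were below both WT ranks at 109 of 480 host promoters (22.7%), against 23.0% of all 13951. Both were above at 102, against 23.9% of all.

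Ranks of single host promoters are given as examples, since groups that did not overlap were about as frequent among hosts as among all genes. The promoter of Myocd ranked 71.7 and 68.8 in WT against 45.0 and 42.5 in K20R. Runx1 had 63.0 and 58.5 against 42.6 and 41.1, Tgfbr3 67.2 and 49.7 against 39.6 and 31.2, and Mast4 77.9 and 74.0 against 66.7 and 56.8. At these 4 the groups did not overlap and K20R was lower. At Slc44a5 both K20R ranks were above both WT ranks (12.3 and 12.1 against 15.9 and 15.2). At Cdh2 they were too, by a narrow margin (37.4 and 25.4 against 37.8 and 38.8). The promoter of Fam120b was also higher in K20R (58.4 and 71.2 against 81.3 and 89.8). At Auts2 the groups overlapped (47.9 and 66.6 against 59.1 and 31.9), as they did at Robo1, Nfatc1, Znrf3 and Sfrp1.

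The nearest common region within 50000 bp of a member was ranked among all 38527 common regions. The 520 neighbours had median percentiles of 50.4 and 48.3 in WT against 46.7 and 46.6 in K20R, a difference of −2.71 (exact permutation test over n = 2 against 2 libraries, two-sided, p = 0.333, the smallest possible). Near the members with no missing peak number the difference was −0.69 (146 neighbours, exact permutation p = 1). Both K20R ranks were below both WT ranks at 161 (31.0%, 27.1 to 35.1%), against 25.5% of all common regions, and above at 153 (29.4%), against 29.2%. Among 311 intronic and intergenic neighbours the medians were 34.2 and 36.1 in WT against 28.4 and 28.0 in K20R, a difference of −6.95 (exact permutation p = 0.333). Both K20R ranks were lower at 126 of them (40.5%, 35.2 to 46.1%), against 29.2% of the 23027 common intronic and intergenic regions, and higher at 88 (28.3%), against 29.3%.

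**Figure D5:**
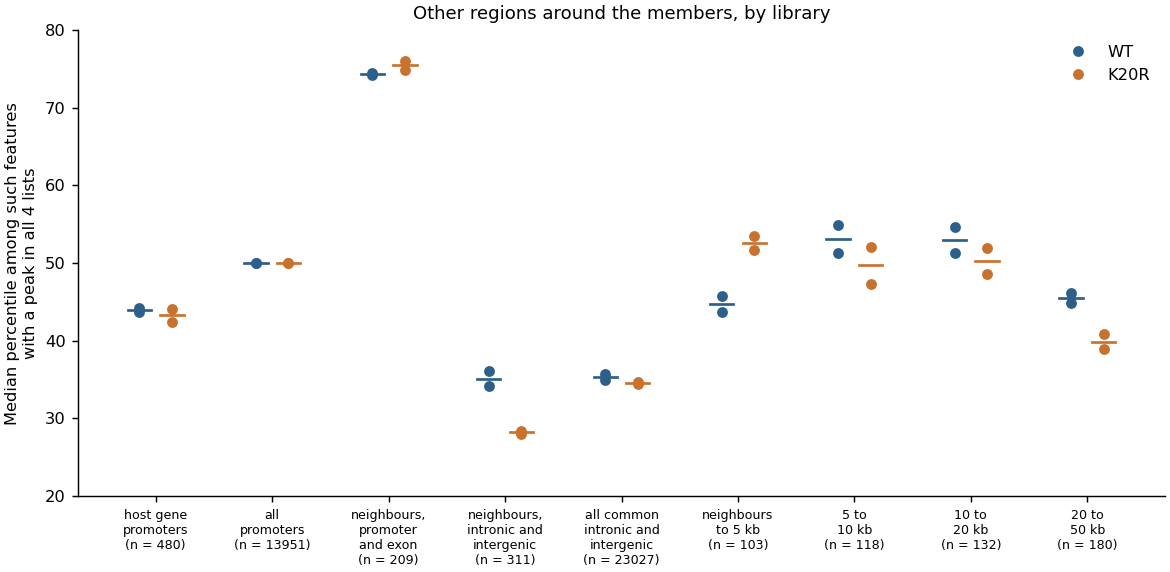
Median percentile in each library (points, WT blue, CTCF-K20R orange; lines, means of n = 2) for features other than the members, ranked among such features with a peak in all 4 lists. Host promoters overlap between genotypes, and intronic and intergenic neighbours are lower in both K20R libraries (28.4 and 28.0 against 34.2 and 36.1). Promoter and exon neighbours are slightly higher in both (74.9 and 76.1 against 74.3 and 74.5). Neighbours to 5 kb are higher by rank but not by pileup, and their local background differs between genotypes.

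By rank, the direction depended on distance. The 103 neighbours within 5000 bp had medians of 43.7 and 45.7 in WT against 53.5 and 51.7 in K20R (exact permutation p = 0.333). Both K20R ranks were higher at 52 (50.5%), against 29.2% of all common regions, and lower at 20 (19.4%), against 25.5%. Those at 20000 to 50000 bp had 46.2 and 44.9 in WT against 40.9 and 38.9 in K20R. Ranks follow the p against a local background, and that background moved with the result. At the neighbours within 5000 bp its median was 7.92 and 10.9 reads in WT and 5.87 and 7.21 in K20R, while over all common regions it was 5.26 and 6.25 in WT against 5.77 and 6.75 in K20R. On the pileup itself, as log2 of the pileup plus 1 centred on all common regions, these neighbours had 0.17 in both WT libraries and 0.04 and 0.05 in K20R, so they were not higher in K20R on that scale. The background so close to a member may hold the member's own WT reads, which the rule required, and this was not tested.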

How the data were processed

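ATAC-seq was performed on day 4 embryoid bodies, with 2 biological replicates per genotype by the study's methods. The authors trimmed reads with Trim Galore, aligned them to mm10 with Bowtie2, removed reads of low mapping quality, duplicates and blacklisted reads, and called peaks per library with MACS2. The deposited values were a score, the fold over local background (a ratio) and the −log10 p-value and −log10 q-value of each peak. Read depth is unknown. Only 51.7%, 50.5%, 58.6% and 60.8% of peak numbers (WT replicates 1 and 2, K20R replicates 1 and 2) were listed, so peaks were removed by a rule not stated.

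Peaks were merged at 1 bp and classed with GENCODE vM21 transcripts, promoters reaching 1000 bp from a start site. Exons were those of protein-coding genes. Pileups were solved from the deposited fold and −log10 p. Ranks were compared over libraries with the two-sided exact permutation test. Letters of 17 motif families and 14 gene lists were fixed by hand, and some items, among them 1 of the lists, are not reported here. Regions named were the 12 with the highest mean WT percentile, host genes with at least 4 members, up to 4 members per gene list and those next to the threshold, and others were chosen after their values were seen, among them the host promoters named. The members and lists were chosen with earlier results of these data known. The count within 100000 bp, the GC weighting and the split of neighbours by class and distance were added after seeing the data. The scripts (Python 3.11.15, numpy 2.4.6, pandas 2.3.3, scipy 1.17.1) were tested on simulated data. Alternatives were other q limits, equal list lengths, regions without missing peak numbers, other windows and distances, and leaving out each library.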

Additional observations from a re-analysis of the deposited data

How the results depend on the processing

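Of 121 alternatives, 3 turned a direction, 33 moved a count or share past its limit, and 85 did neither, though rank shifts among these changed in size. Lowering the −log10 q limit to 5 gave 1598 members (15.0% of strong WT intronic regions) and 242 regions by the exchanged rule, and raising it to 20 gave 179 (6.80%) and 12. The share was 9.43% with no peak of the other genotype within 1000 bp and 11.3% with equal list lengths, where the exchanged rule gave 108. With no missing peak number there were 160 members (2.56%) and 11. Differences in motif share (members minus common intronic, percentage points) within 50 bp of the summit were 9.92 for GATA, −7.49 for CTCF, 0.195 for TCF-LEF and 4.90 for forkhead. At a limit of 20 they were 6.31 for T-box and −10.8 for CTCF, and CTCF gave −10.6 weighted by WT percentile and −11.0 by GC. The host promoter shift turned to 0.72 at a limit of 20 and the neighbour shift to 2.24 within 10000 bp, and the cause was not tested. With no missing peak number the host promoter shift was −2.51 and the neighbour shift −0.69, and with percentiles of the whole list they were −1.86 and −6.24. The AP-1 difference fell from 1.03 to 0.0514 at a limit of 20.

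Leaving out 1 library gave 682 to 2066 members (2066 without WT replicate 1, 999 without K20R replicate 2), 10.7 to 17.5% of strong WT intronic regions, and 76 to 347 regions by the exchanged rule (200 without WT replicate 2, 347 without K20R replicate 1). Members with no missing number were 24.5 to 42.6% (42.6% without K20R replicate 1). Motif differences ranged from 11.9 to 14.4 for GATA, −9.47 to −7.79 for CTCF, 2.85 to 3.59 for T-box, 6.71 to 7.72 for forkhead, 1.59 to 2.29 for TCF-LEF and 0.0590 to 1.94 for AP-1. The host promoter shift ranged from −1.54 to 0.158, positive without K20R replicate 1, and the neighbour shift from −3.76 to −1.65.

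The labels do not tie replicate numbers across genotypes, and same-numbered libraries deviated together with a correlation of 0.110 over 38527 common regions. With the replicate number as a block the host promoter shift was −0.69 (exact permutation p = 0.5) and the neighbour shift −2.71 (exact permutation p = 0.5). With 2 libraries per genotype no rank comparison could reach a p under 0.333.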
